A study of Mus musculus with 4 samples.

Results

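Etv1, Bcl6 and Pou3f1 encode transcription factors used as markers of deep cortical neurons, and they were followed through the excitatory neurons and the other cells of the ventromedial prefrontal cortex (vmPFC) of the mouse. The 3 genes, of 31053 in the count matrices, had been chosen by their measured levels in the excitatory subtypes and by their levels in neurons with and without a viral barcode in these same libraries. Those levels are therefore given below as a description and carry no test. Their levels by immediate early gene content, the levels of other genes around them and their levels in other cell classes did not enter that choice.

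The cells came from male C57BL/6 mice, injected with virus at 8 weeks of age, from which the prelimbic and infralimbic areas were dissected. All animals of both groups carried 5 rAAV2-retro viruses, taken up by axon terminals, which drive EGFP and a short barcode from a CAG promoter. Each virus had been placed in 1 target, which were the lateral hypothalamus (LH), the basolateral amygdala (BLA), the thalamic nucleus MD, the agranular insular cortex (AI) and the DMS, the dorsomedial part of the striatum. The unsorted group held 3 libraries, 1 from each of 3 mice, and the sorted group held 1 library of EGFP-positive cells pooled from 3 other mice, so that the sorted side has no replicate. No group without virus was analysed. The matrices hold 1 feature named barcode, so that the targets of a neuron could not be told apart here.

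The libraries held 2816, 2486 and 2463 excitatory neurons in unsorted replicates 1 to 3 and 1603 in the sorted library, in the 7 subtypes named by the authors. Median depth was 21344 to 23213 UMIs (unique molecular identifiers, counts of single captured transcripts) per unsorted neuron and 31669 per sorted neuron. Any pair of libraries shared 5 to 30 cell barcodes, of which 0 to 4 belonged to neurons. Markers of near-projecting neurons peaked in L5-Htr2c for 4 of 4 genes, markers of extratelencephalic neurons in L5-Bcl6 for 4 of 6 and layer 2/3 markers in L2/3-Calb1 for 4 of 5.

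ETV1 is an ETS factor of the group that also holds ETV4 and ETV5, and its gene is a classical layer 5 marker that responds to fibroblast growth factor and ERK signalling. BCL6 is a zinc finger repressor with a BTB domain that recruits co-repressors such as BCOR. It is best known from germinal centre B cells, and in the developing cortex it promotes neurogenesis by silencing Notch targets. POU3F1 belongs to the class III POU factors with POU3F2 and POU3F3, drives the onset of myelination in Schwann cells and marks part of the layer 5 neurons that project out of the telencephalon.

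In GRCm38 with the GENCODE annotation, Etv1 (ENSMUSG00000004151) lies on chromosome 12 from 38779380 to 38870484 on the plus strand. Bcl6 (ENSMUSG00000022508) lies on chromosome 16 from 23965052 to 23988852 on the minus strand. Pou3f1 (ENSMUSG00000090125) lies on chromosome 4 from 124656807 to 124660655 on the plus strand. Bcl6 overlaps Gm37419 and Pou3f1 overlaps the antisense gene Gm2164, both on the opposite strand.

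Of the 3 genes, only Bcl6 was called in the comparison by immediate early gene content given further on, and its proximal promoter is shown for that reason. Immediate early genes are induced within minutes of neuronal activity, in part through CREB, which binds the cAMP response element. The sequence is the RefSeq promoter window, the 250 bases before the annotated start (GRCm38.p6, chr16:23988853-23989102, minus strand, read 5′ to 3′), and capitals mark the cAMP response element half-site TGACG on either strand.

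Bcl6: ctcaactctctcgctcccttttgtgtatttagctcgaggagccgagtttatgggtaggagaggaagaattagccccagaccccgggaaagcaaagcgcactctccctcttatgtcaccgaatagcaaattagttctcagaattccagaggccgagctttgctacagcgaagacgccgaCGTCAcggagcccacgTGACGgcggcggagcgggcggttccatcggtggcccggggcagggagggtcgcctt

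The window held 2 half-sites, at -72 to -68 and -56 to -52 from the start, the second of which overlaps an E-box (CACGTG) at -60 to -55. Of 32851 windows of the same length in the table, 17.8% held at least 1 half-site and 3.90% held 2 or more. No half-site was found in the second Bcl6 window or in either Etv1 window. The full element TGACGTCA, the EGR motif GCGTGGGCG, the AP-1 motif TGACTCA and the CArG box were found in none of the 4 windows of Bcl6 and Etv1. Both strands were searched, and a match is a string of letters and not a measured binding site.

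Etv1 was highest in L5-Htr2c, the near-projecting subtype. Its level there was 992, 920 and 832 CPM (UMIs of the gene scaled to the total UMIs of the summed cells) in unsorted replicates 1, 2 and 3, and 1147 CPM in the 4 sorted cells. L5-S100b followed with 446, 429 and 397 CPM in the unsorted libraries and 511 CPM in the sorted library. L5-Bcl6 was next with 266, 238 and 201 CPM, and 298 CPM after sorting. The means of the unsorted libraries were 915 ± 79.9, 424 ± 25.0 and 235 ± 32.4 CPM (SD, n = 3), and no library of one subtype reached the range of the next. The gene was thus graded across layer 5, and detected outside it as well.

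Outside layer 5, Etv1 stood at 79.3 ± 6.26 CPM in L2/3-Rorb, 41.0 ± 3.16 in L6-Syt6, 20.2 ± 2.51 in L6-Npy and 18.9 ± 8.55 in L2/3-Calb1 (SD, n = 3). The ranges of the last pair overlapped, and all other neighbours in this order were separate. Because L5-S100b and L6-Syt6 are large subtypes, L5-S100b contributed 50.2% ± 0.765 of all Etv1 UMIs of unsorted excitatory neurons and L5-Htr2c only 18.4% ± 0.666 (SD, n = 3). L6-Syt6, with 55.7% of the neurons, contributed 17.6% ± 0.703.

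Bcl6 was concentrated in the subtype named after it. L5-Bcl6 held 61.0, 61.3 and 64.0 CPM in the unsorted libraries and 64.8 CPM in the sorted library, the tightest set of values of the 3 genes. The next subtype, L5-S100b, was 14.0-fold lower at 4.45 ± 1.49 CPM (SD, n = 3), and its range overlapped that of L6-Npy at 3.62 ± 0.743 CPM. In L5-Htr2c, 1 UMI of Bcl6 was counted in the 317 unsorted cells, and in L6-Syt6 the 3 libraries held 5, 11 and 6 UMIs over 1511, 1426 and 1382 cells. L5-Bcl6, 4.02% of unsorted neurons, contributed 65.5% ± 3.71 of their Bcl6 UMIs (SD, n = 3).

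Pou3f1 shared this peak and had a second, lower one in the upper layers. L5-Bcl6 held 278, 322 and 280 CPM in unsorted replicates 1, 2 and 3 and 221 CPM in the sorted library. L2/3-Calb1 held 35.5, 44.7 and 44.5 CPM and 33.6 CPM, 7.05-fold below L5-Bcl6 in the unsorted mean. The remaining subtypes stood between 0.890 and 6.75 CPM, and the ranges of L2/3-Rorb, L6-Npy, L5-Htr2c and L5-S100b overlapped from each to the next. L5-Bcl6 contributed 77.3% ± 2.98 of the Pou3f1 UMIs of unsorted excitatory neurons (SD, n = 3).

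**Figure D1:**
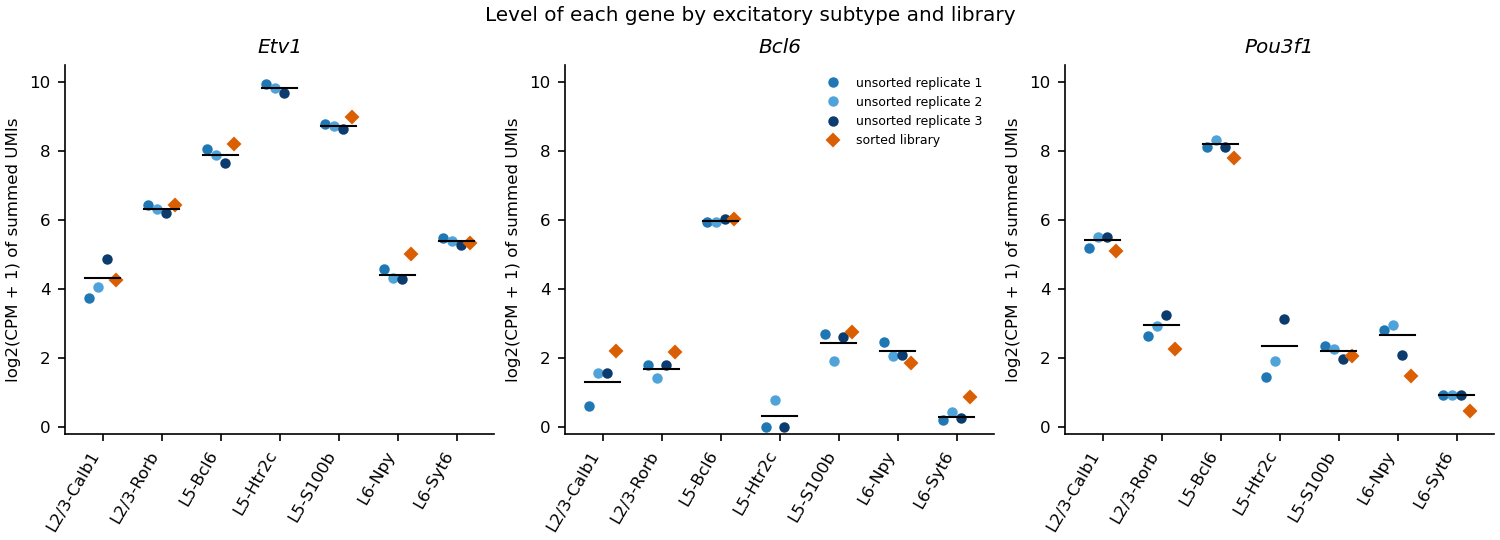
Level of Etv1, Bcl6 and Pou3f1, as log2(CPM + 1) of UMIs summed per library, in the 7 excitatory subtypes. Each circle is 1 unsorted library, each diamond the sorted library (not drawn for the 4 cells of L5-Htr2c) and each line the mean of the 3 unsorted libraries. Etv1 forms a series of steps led by L5-Htr2c, whereas Bcl6 and Pou3f1 peak in L5-Bcl6.

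The sorted library differed from the unsorted ones in both directions. In the sorted library Etv1 lay above the unsorted range in L5-Bcl6, L5-S100b and L6-Npy, with 31.2 CPM in L6-Npy against 18.5 to 23.1 CPM. Pou3f1 lay below the unsorted range in L5-Bcl6, L2/3-Calb1, L2/3-Rorb, L6-Npy and L6-Syt6. Bcl6 lay above the unsorted range in L2/3-Calb1 (2.47 times the unsorted mean), L2/3-Rorb (1.61), L5-Bcl6 (1.04), L5-S100b (1.29) and L6-Syt6 (3.70) and below it in L6-Npy (0.725). With 1 sorted library these differences have no replicate check, and the sort cannot be told apart from the mice that were sorted.

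The number of UMIs per cell separated the layer 5 subtypes further. Each neuron was thinned at random to 10000 UMIs, so that shares of cells are compared at 1 depth. In L5-Htr2c, 0.358% ± 0.621 of cells held no Etv1 UMI and 84.4% ± 4.10 held 5 or more (SD, n = 3). In L5-S100b, 24.6% ± 2.59 of cells held none although the mean was 4.12 UMIs per cell, and 41.4% ± 1.17 held 5 or more. A Poisson count of that mean would leave 1.65% of cells without a UMI, so that Etv1 was spread unevenly over the cells of L5-S100b. The zero share was 21.6%, 25.9%, 26.3% and 24.3% in the 3 unsorted libraries and the sorted one.

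In L5-Bcl6 the spread was narrower. Etv1 was absent from 16.0% ± 3.85 of thinned cells, where a Poisson count of the same mean gives 9.06%. Pou3f1 was absent from 15.4% ± 4.32 against 5.90%, and Bcl6 from 56.8% ± 6.04 against 53.5% (SD, n = 3). Without thinning, Bcl6 was detected in 69.2% ± 1.76 and Pou3f1 in 91.0% ± 5.07 of unsorted L5-Bcl6 cells. In L6-Syt6, where both genes are near 0, the unthinned shares were 0.465% ± 0.205 for Bcl6 and 1.67% ± 0.187 for Pou3f1 (SD, n = 3), at median depths of 22502 to 23821 UMIs against 22498 to 25668 in L5-Bcl6.

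**Figure D2:**
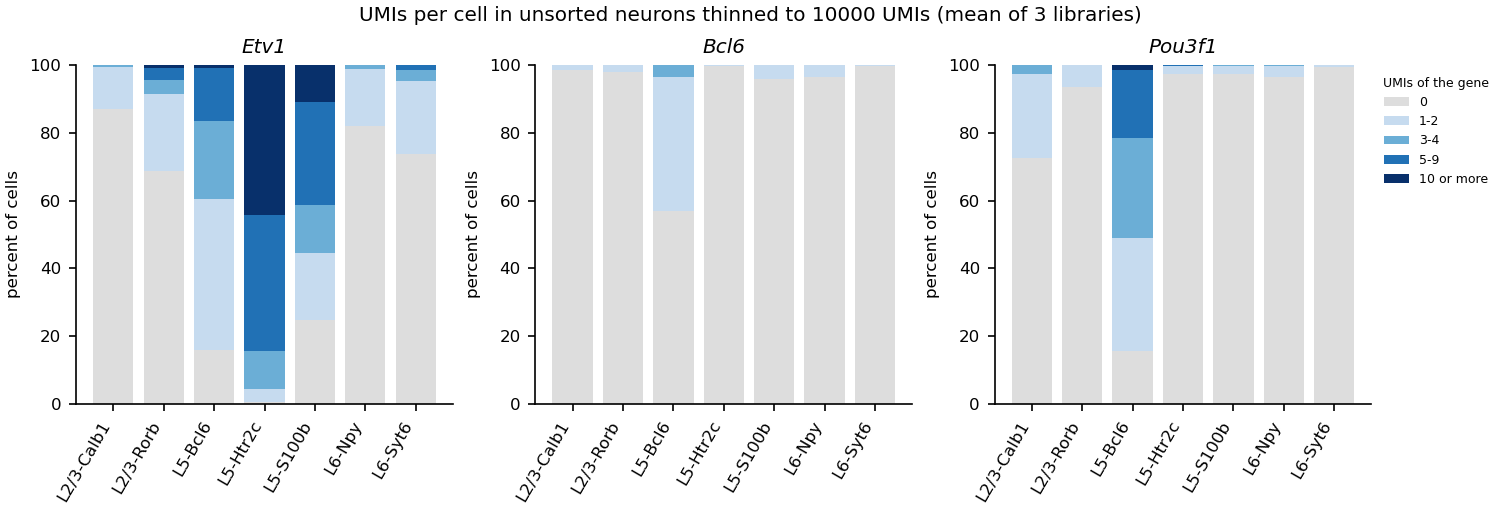
Share of cells, in percent, by the number of UMIs of each gene in neurons of the unsorted libraries thinned to 10000 UMIs, as the mean of 3 libraries. In L5-S100b 24.6% of cells lack an Etv1 UMI while 41.4% hold 5 or more, and in L5-Htr2c almost no cell lacks one.

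Within L5-Bcl6 the pairs of genes met in nearly as many cells as their separate shares would give. Of 299 thinned unsorted cells, 32.8% held all 3 genes and 3.34% none. Over all 4 libraries Etv1 and Pou3f1 met in 263 cells where 258.1 were expected, Bcl6 and Pou3f1 in 140 where 130.0 were expected, and Etv1 and Bcl6 in 132 where 133.2 were expected. The mean log2 odds ratios were 1.12 ± 0.510, 1.10 ± 0.471 and -0.19 ± 0.498 (SD), above 0 in 4, 4 and 1 of 4 libraries. In L5-S100b Etv1 and Pou3f1 met less often than their shares would give, in 15 cells where 25.1 were expected, with a log2 odds ratio of -2.03 ± 0.512, below 0 in each library. Thinned to 5000 UMIs, the log2 odds ratios in L5-Bcl6 were 0.22, 0.58 and 0.50 in the same order, above 0 in 3, 4 and 3 of 4 libraries, so that the sign for Etv1 with Bcl6 turned. They are a description, since the cells of 1 library are not independent samples.

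The other genes of each family were mostly spread over more subtypes. Etv5 peaked in L5-Bcl6 at 164 CPM but stood at 31.7 CPM or more in every subtype, and Etv4 did not exceed 2.11 CPM. Pou3f2 was highest in L2/3-Rorb at 58.2 CPM and only 4.43 CPM in L5-Bcl6, where Pou3f1 peaked. Pou3f3 ranged from 13.7 to 43.7 CPM. Bcl6b, the closest relative of Bcl6, did not exceed 4.03 CPM, which it reached in L5-Bcl6. Over the lists of co-factors and relatives, 2 of 16 ETS factors, 1 of 8 POU factors and 4 of 14 BTB factors and BCL6 co-repressors were highest in L5-Bcl6.

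The genes whose levels followed each member most closely were sought over the 21 sums of 3 unsorted libraries and 7 subtypes, among 10492 genes with a mean of at least 5 CPM, by Pearson correlation of log2(CPM + 1). The sums share libraries and subtypes, so the values are a description. Nearest to Etv1 were Disp2 (r = 0.97), Gdap1, Dclk1, Mapk8 and Mboat7, all highest in L5-Htr2c. Nearest to Bcl6 were Ptp4a2 (r = 0.95), Ccng1, Map2, Tmem132b and Dexi, and nearest to Pou3f1 were Grik2 (r = 0.98), Dlk1, Bend7, Tiam1 and Gng7, all highest in L5-Bcl6. By rank correlation 3, 0 and 1 of these 5 genes stayed among the nearest 5 of Etv1, Bcl6 and Pou3f1. Among the members themselves r was 0.79 for Bcl6 with Pou3f1, 0.15 for Etv1 with Bcl6 and -0.01 for Etv1 with Pou3f1.

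Outside the excitatory neurons, Pou3f1 was highest in oligodendrocyte precursor-like and Etv1 in oligodendrocyte-like cells. Cell classes were rebuilt by clustering and named from markers, and levels are those of the 3 unsorted libraries. In oligodendrocyte precursor-like cells Pou3f1 stood at 951, 908 and 930 CPM and was detected in 92.3% ± 0.861 of cells at a median of 4012 to 4286 UMIs. It was also at 309 ± 11.5 CPM in oligodendrocyte-like cells and 185 ± 29.7 CPM in committed precursor-like cells (SD, n = 3). As shares of all UMIs, these levels exceed those of most neuronal subtypes, and those in precursors exceed L5-Bcl6 as well. Precursor-like cells are shallower than neurons and held 6306 Pou3f1 UMIs over 1640 cells, whereas unsorted L5-Bcl6 neurons held a median of 6 per cell.

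Etv1 had its highest level outside neurons in oligodendrocyte-like cells, at 469, 492 and 449 CPM in replicates 1, 2 and 3, near its level in L5-S100b. It was detected in 82.6% ± 1.42 of these cells, and stood at 170 ± 20.7 CPM in the precursor-like cells (SD, n = 3). In committed precursor-like cells it was 44.3 ± 38.0 CPM, below astrocyte-like cells at 93.2 ± 32.3, mural-like cells at 87.7 ± 17.3 and perivascular macrophage-like cells at 74.9 ± 34.6 CPM (SD, n = 3). Etv1 was thus higher in the mature cells and Pou3f1 in the precursors, with no overlap of libraries for either gene. For comparison, endothelial-like cells, with a median of 2704 to 2946 UMIs, held an Etv1 UMI in 3.29% ± 1.25 and a Pou3f1 UMI in 0.998% ± 0.181 of cells. Perivascular macrophage-like cells held a Pou3f1 UMI in 0 of 119 cells, which allows a share of up to 2.52% of cells with a UMI at a median of 4482 to 4874 UMIs and sets no limit on cells that express the gene.

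Bcl6 was widespread outside excitatory neurons, and in some glia it stood above every excitatory subtype except L5-Bcl6, at 62.1 ± 1.66 CPM. Its level was 53.7 ± 8.72 CPM in astrocyte-like, 42.5 ± 3.41 in microglia-like and 38.7 ± 1.93 in oligodendrocyte precursor-like cells (SD, n = 3). Inhibitory neurons held 13.2 ± 2.20 CPM, unevenly by cluster. The cluster led by Tac1 and Pvalb held 33.6 ± 7.01 CPM and the cluster led by Sst 19.9 ± 5.51, whereas the clusters led by Vip and by Htr3a held 6.29 ± 1.85 and 3.05 ± 0.700 CPM (SD, n = 3). For each of the 3 genes, at least 1 class of glia stood above its level in 1 or more layer 5 subtypes.

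**Figure D3:**
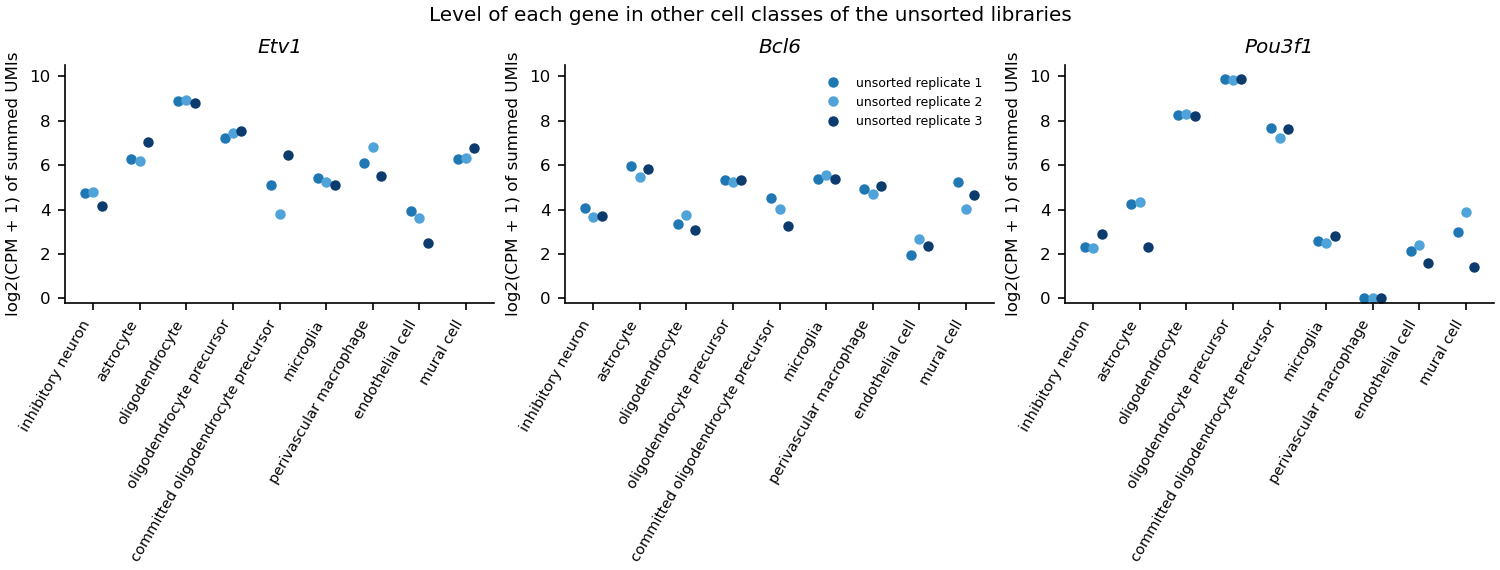
Level of each gene, as log2(CPM + 1) of summed UMIs, in 9 other cell classes of the 3 unsorted libraries, 1 point per library. Pou3f1 is highest in oligodendrocyte precursors (908 to 951 CPM), Etv1 in oligodendrocytes (449 to 492 CPM), and Bcl6 does not exceed 60.6 CPM in any class.

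Neurons with 5 or more UMIs of the barcode feature (barcode-high) were set against neurons with 0 (barcode-zero) within each subtype and library, where at least 3 libraries had 10 or more cells on both sides. L5-Htr2c had too few barcode-high cells, and the sorted library had too few barcode-zero ones in L2/3-Calb1 and L5-Bcl6. A count of 0 does not show that a neuron lacked virus, and the barcode-zero neurons of the sorted library had passed the EGFP sort. Because the members had been chosen with this contrast in view, their values are a description.

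Etv1 was higher in barcode-high L2/3-Rorb neurons. It stood at 96.1, 102 and 86.3 CPM in the unsorted replicates and 85.0 CPM in the sorted library, against 80.0, 52.6, 30.5 and 37.4 CPM in neurons without barcode. All barcode-high values lay above all barcode-zero ones, and the mean log2 ratio was 0.96 ± 0.512 over 4 libraries (SD). Lypd1, a near-projecting marker, was higher in these neurons as well, with a log2 fold change of 0.55 ± 0.0998 (edgeR, SE) and an adjusted p of 0.00138. DESeq2, and edgeR without the library as a block, called 0 genes in this subtype, so that this call depends on the fit.

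In L5-S100b Etv1 was 480, 460, 437 and 585 CPM in barcode-high neurons and 422, 407, 248 and 349 CPM in barcode-zero ones, in the same order of libraries. The groups did not overlap, and the mean log2 ratio was 0.48 ± 0.348 (SD), positive in 4 of 4 libraries. In unsorted replicates 1 and 2, neurons with 1 to 4 barcode UMIs were lower than the barcode-zero ones in both L5-S100b (316 and 269 CPM) and L2/3-Rorb (36.1 and 29.7 CPM). Bcl6 went the other way in L5-S100b, with 3.25, 2.69, 4.25 and 4.00 CPM in barcode-high and 11.5, 4.32, 11.6 and 5.56 CPM in barcode-zero neurons. That difference rests on 14, 4, 12 and 4 Bcl6 UMIs in the barcode-zero neurons, and in thinned cells the mean log2 ratio was -0.17, positive in 2 of 4 libraries, against -0.94 ± 0.565 (SD) in all cells. Summed fibroblast markers in L5-S100b were 0.567 to 2.34 CPM in barcode-high and 4.84 to 14.0 CPM in barcode-zero neurons. The 1 fibroblast marker tested was called lower, and their part in these results was not tested.

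In layer 6 the direction for Etv1 was the opposite. Barcode-high L6-Syt6 neurons held 37.4, 33.5, 28.1 and 33.8 CPM and barcode-zero ones 48.9, 48.2, 46.3 and 54.6 CPM, with no overlap. The mean log2 ratio was -0.57 ± 0.152 in L6-Syt6 and -0.35 ± 0.194 in L6-Npy, where the ranges overlapped but each library was lower (SD over 4 libraries). Summed markers of mural cells, in which Etv1 stood at 87.7 ± 17.3 CPM, were also lower in barcode-high L6-Syt6 neurons, at 6.31 to 11.5 against 24.1 to 35.3 CPM. Of 2 tested mural markers, 1 was called lower. In L6-Npy summed fibroblast markers were 29.9 to 50.7 against 44.3 to 87.8 CPM, with the 1 tested marker called lower. The part of either in the results was not tested.

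In L5-Bcl6 the ratios were smaller. Over the 3 unsorted libraries the mean log2 ratio was 0.25 ± 0.132 for Bcl6, 0.28 ± 0.234 for Pou3f1 and 0.28 ± 0.362 for Etv1 (SD), above 0 in 3, 3 and 2 of 3 libraries. Bcl6 stood at 66.1, 65.1 and 65.0 CPM in barcode-high and 53.4, 50.6 and 60.3 CPM in barcode-zero neurons, without overlap. Its mean log2 ratio was larger in L2/3-Rorb (1.29 ± 1.14, above 0 in 4 of 4 libraries) and L2/3-Calb1 (0.88 ± 0.732, in 3 of 3). There it rests on few UMIs, at means of 3.34 and 2.29 CPM in barcode-high neurons. A gene was called where its adjusted p was below 0.05 in the edgeR fit over all genes and its log2 fold change 0.5 or more in either direction. The share of all tested genes called was 0.139% in L2/3-Rorb, 1.67% in L6-Syt6, 2.70% in L5-S100b, 0.0686% in L5-Bcl6, 0.801% in L6-Npy and 0.180% in L2/3-Calb1.

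Genes around the members in this contrast, which played no part in their choice, could be tested. Of 14 immediate early genes, 12 were called higher on the barcode-high side in L6-Npy, 8 in L6-Syt6, 5 in L2/3-Calb1, 3 in L5-S100b, 1 in L2/3-Rorb and 0 of 13 in L5-Bcl6. Dusp6, the phosphatase that restrains ERK downstream of growth factors, was higher in barcode-high L2/3-Calb1, L6-Npy and L6-Syt6, by 1.01 ± 0.213, 1.20 ± 0.125 and 0.73 ± 0.0849 on the log2 scale (edgeR, SE). Over all genes, the alternative DESeq2 called 2 in L2/3-Calb1, 0 in L2/3-Rorb and 11 in L6-Npy. The edgeR fit without the library as a block called 0 in L2/3-Rorb and L6-Npy. The calls in L2/3-Rorb and L6-Npy thus do not hold in every fit, nor do all of those in L2/3-Calb1. In L5-S100b, Ccnd1, a cell cycle gene on the list of BCL6 targets, was 1.24 ± 0.211 higher on the log2 scale in barcode-high neurons. The extratelencephalic markers split there, with Fezf2 higher by 0.54 ± 0.120 and Bcl11b (log2 fold change -0.72 ± 0.145) and Npr3 (-1.94 ± 0.333) lower.

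**Figure D4:**
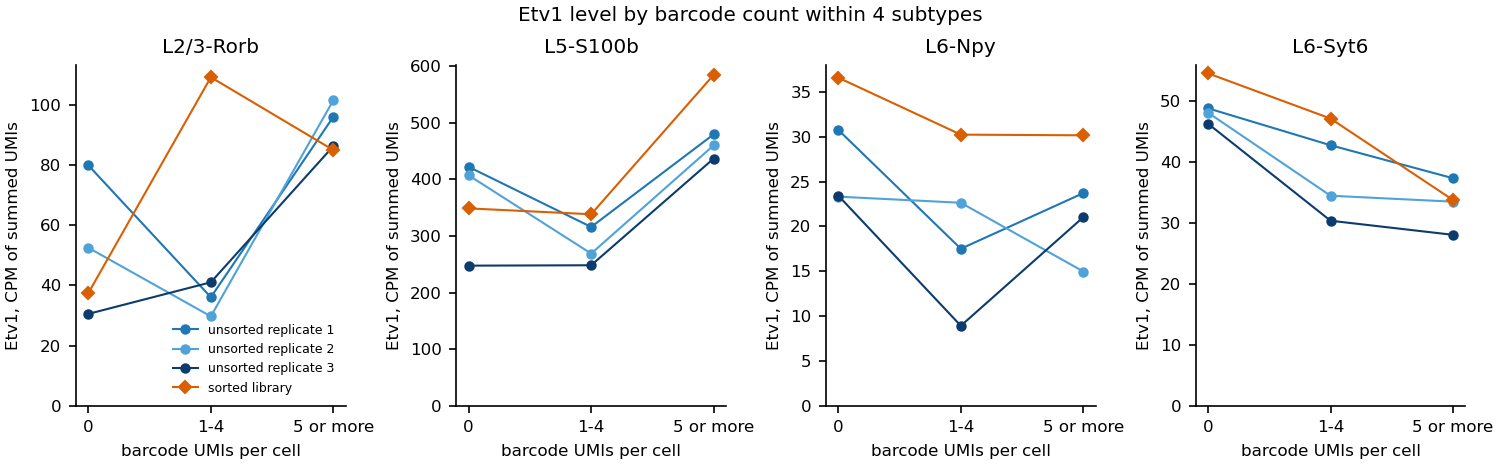
Etv1 level, in CPM of summed UMIs, in cells with 0, 1 to 4 and 5 or more barcode UMIs within 4 subtypes, with 1 line per library. Cells with 5 or more lie above cells with 0 in L2/3-Rorb and L5-S100b and below them in L6-Npy and L6-Syt6, in 4 of 4 libraries.

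Activity content gave a comparison that the choice of the genes had not used. Within each library and subtype, neurons of at least 10000 UMIs were ranked by the summed UMIs of 14 immediate early genes after thinning. The upper and lower tertiles were compared with edgeR, with the library as a block. A subtype was compared where every library had at least 10 cells on both sides, which left out L5-Htr2c. The counts describe the cells as captured, after slicing, incubation with glutamate receptor antagonists and enzymatic dissociation. Members were tested where they passed the count filter, which was all 3 in L5-Bcl6, Etv1 and Bcl6 in L5-S100b, Etv1 and Pou3f1 in L2/3-Calb1 and Etv1 alone in the other 3 subtypes.

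Bcl6 rose with immediate early gene content in L5-Bcl6. Its level was 73.9, 80.6, 82.4 and 96.9 CPM in the upper tertile in unsorted replicates 1, 2 and 3 and the sorted library, and 35.9, 49.7, 35.3 and 47.8 CPM in the lower tertile. The groups did not overlap, and the log2 fold change was 1.01 ± 0.153 (SE) with an adjusted p of 1.27e-05, in a contrast that called 1.36% of genes. Among neurons with 5 or more barcode UMIs alone, the log2 fold change was 0.99 with an adjusted p of 0.000268, and over all alternatives the adjusted p lay between 1.63e-07 and 0.0235.

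Across libraries the 2 sides of this contrast overlapped in depth and in the share of barcode-high neurons, though within each library the upper tertile was slightly deeper. Median UMIs per cell were 23260, 24829, 26284 and 31179 in the upper tertile and 23175, 24030, 25470 and 30447 in the lower tertile. Barcode-high neurons made up 65.0%, 77.4%, 66.7% and 71.4% of the upper and 75.6%, 60.6%, 64.3% and 65.2% of the lower tertile. Of the glia with Bcl6, summed astrocyte markers were 0 to 9.62 CPM in the upper and 8.21 to 19.0 CPM in the lower tertile, summed microglia markers 1.47 to 27.7 and 10.1 to 38.3 CPM, and summed precursor markers 1.47 to 8.70 and 0 to 6.38 CPM.

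The other members of L5-Bcl6 did not pass the test. Etv1 had a log2 fold change of 0.17 ± 0.0887 (adjusted p = 0.518) and Pou3f1 one of 0.06 ± 0.0801 (adjusted p = 0.873), both in the edgeR fit. Fam84b, the 1 called of 6 extratelencephalic markers, was 1.15 ± 0.179 higher on the log2 scale in the upper tertile. Slc30a3, a zinc transporter and the 1 called of 4 intratelencephalic markers, had a log2 fold change of -1.35 ± 0.216, while the median of that list was 0.22. No gene of the BTB and co-repressor list and none of the BCL6 targets tested (10 and 2 genes) was called there.

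In L5-S100b, where Bcl6 is scarce, its values lay the other way. The upper tertile held 5.27, 1.72, 2.05 and 4.05 CPM and the lower tertile 7.02, 4.89, 8.90 and 8.56 CPM, lower in 4 of 4 libraries. The log2 fold change was -1.11 ± 0.275 (SE), with an adjusted p of 0.00228 by edgeR and of 0.143 by DESeq2, in a contrast that called 5.99% of genes. Without the library block the adjusted p was 0.101, and when the cells were divided at the median it was 0.0559, within a range over all alternatives of 0.000297 to 0.143. With no filter on low counts it was 0.000297, and with the filter Bcl6 entered the test through the lower tertile, where it is higher. The p-values of Bcl6 in L5-S100b are therefore given as a description. Its levels there rest on 16, 5, 6 and 14 UMIs in the upper and 25, 15, 29 and 31 UMIs in the lower tertile. The difference between L5-S100b and L5-Bcl6, a comparison added after these values had been seen, was -2.12 ± 0.303 on the log2 scale (adjusted p = 3.07e-06 by edgeR), where 1.38% of genes were called. It restates the opposite signs that prompted it, holds the same few L5-S100b UMIs and is a description. It was not fitted with DESeq2, without the block or with a split at the median.

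Etv1 was 487, 459, 500 and 543 CPM in the upper tertile of L5-S100b and 466, 426, 323 and 514 CPM in the lower tertile. It was higher in 4 of 4 libraries by a log2 fold change of 0.25 ± 0.0528 (SE), with an adjusted p of 0.000398 by edgeR, short of the size of a call. Without unsorted replicate 3 the value was 0.12 with an adjusted p of 0.0842, DESeq2 gave 0.26 with 0.375, and over all alternatives the adjusted p lay between 2.46e-07 and 0.439. Barcode-high neurons were more frequent in the upper tertile, at 73.6% to 80.6% against 57.4% to 71.1% of cells, and among barcode-high neurons alone the log2 fold change was 0.15 (adjusted p = 0.162).

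In L6-Syt6 the sign for Etv1 was reversed. The upper tertile held 39.8, 35.4, 34.8 and 35.0 CPM and the lower tertile 54.5, 48.0, 43.0 and 46.6 CPM, without overlap, in a contrast that called 9.37% of genes. The log2 fold change was -0.32 ± 0.0526 (SE, adjusted p = 1.71e-05 by edgeR), again under the size of a call. Among barcode-high neurons alone it was -0.31 (adjusted p = 0.0583, the highest of all alternatives, whose lowest was 3.30e-07). Barcode-high neurons made up 39.4%, 33.7%, 36.0% and 75.3% of the upper and 21.6%, 21.8%, 20.2% and 38.5% of the lower tertile. Median depth was 23375 to 37274 UMIs in the upper and 21659 to 33532 in the lower tertile. Since Etv1 was lower in barcode-high L6-Syt6 neurons, this comparison is not independent of the barcode contrast. Mural cell markers summed to 5.93 to 21.4 CPM in the upper and 26.5 to 30.2 CPM in the lower tertile, with 1 of 2 tested called higher and 1 lower. Among other classes, 1 of 3 oligodendrocyte and 1 of 5 microglia markers tested were called higher. Called lower were 1 of 2 for astrocytes, 1 of 2 for oligodendrocyte precursors and 1 of 4 for endothelial cells. The part of these cells in the result was not tested. The effect in L6-Syt6 differed from that in L5-S100b by -0.56 ± 0.0894 on the log2 scale (adjusted p = 5.85e-06 by edgeR), a comparison also added after the values had been seen, where 7.99% of genes were called.

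For Etv1 the remaining subtypes gave no stable direction. In L2/3-Rorb the log2 fold change was 0.15 ± 0.123 (edgeR, adjusted p = 0.595), in a contrast that called 3.09% of genes. The sorted library held 143 CPM in the upper and 37.5 CPM in the lower tertile while unsorted replicates 2 and 3 held less in the upper tertile, and without the sorted library the value was -0.41 (adjusted p = 0.0180, against 0.0221 to 1 in the other alternatives). Summed oligodendrocyte markers in L2/3-Rorb were 19.3 to 32.6 CPM in the upper and 33.0 to 50.4 CPM in the lower tertile. Of 2 tested, 1 was called lower, and their part in the result was not tested. In L6-Npy the log2 fold change of Etv1 was 0.25 ± 0.167 (edgeR, adjusted p = 0.439, 4.06% of genes called). In L2/3-Calb1, where 1.37% were called, Etv1 had -0.14 ± 0.336 and Pou3f1 0.16 ± 0.204, neither past the test in edgeR. Pou3f1 did not reach the filter in L6-Npy, where it held 7, 2, 4 and 2 UMIs in the upper and 17, 33, 7 and 5 UMIs in the lower tertile.

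Among relatives and signalling genes in this contrast, Dusp6 was higher in the upper tertile of all 6 subtypes tested, by 1.74 ± 0.0899 in L2/3-Rorb to 3.43 ± 0.111 in L6-Npy on the log2 scale. Spry2, a second brake on ERK signalling, was called higher in L2/3-Calb1, L2/3-Rorb, L5-Bcl6 and L6-Npy. Hes1, a Notch effector among the BCL6 targets, was lower in L2/3-Rorb, L5-S100b and L6-Syt6, with log2 fold changes of -1.14 ± 0.285, -0.82 ± 0.137 and -0.77 ± 0.105 (edgeR, SE). Of the BCL6 targets tested, 0 were called higher and 3 lower of 4 in L2/3-Rorb. The counts were 1 higher and 1 lower of 6 in L5-S100b, and 0 higher and 2 lower of 6 in L6-Syt6. Pou3f2 was higher in L5-S100b by 0.79 ± 0.0999 and lower in L6-Syt6 (log2 fold change -0.61 ± 0.171).

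**Figure D5:**
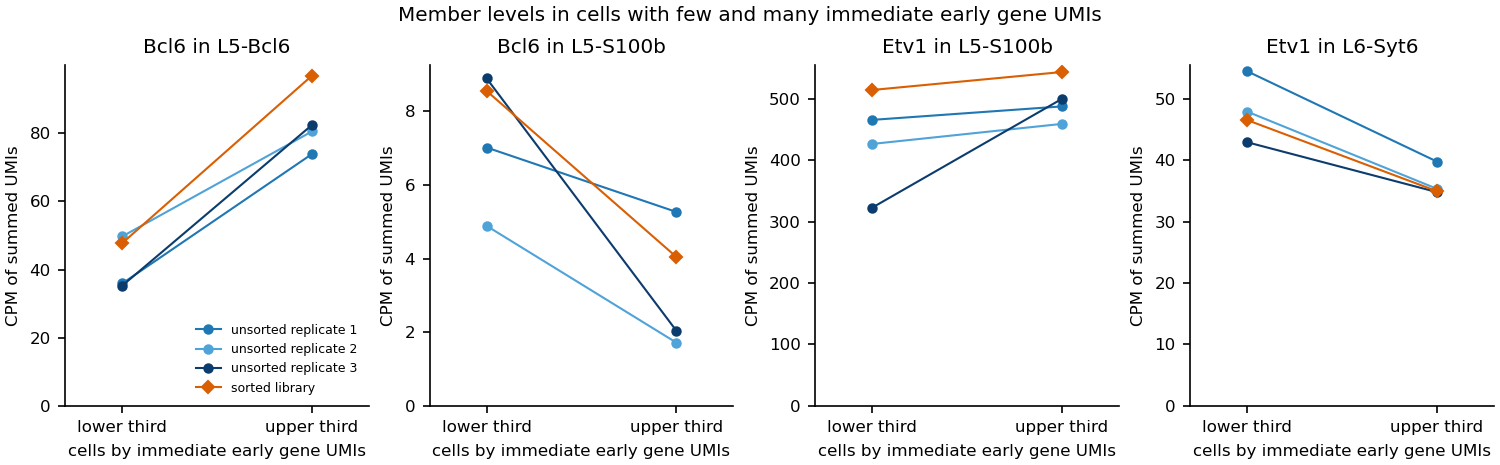
Level of Bcl6 and Etv1, in CPM of summed UMIs, in the lower and upper tertile of cells by immediate early gene UMIs, with 1 line per library. Bcl6 is higher in the upper tertile of L5-Bcl6 and, at few UMIs, lower in that of L5-S100b, and Etv1 is lower in the upper tertile of L6-Syt6, in 4 of 4 libraries.

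The uneven spread of Etv1 in L5-S100b raised the question of what its Etv1-free cells express, and for this a comparison was added after the data had been seen. Thinned cells with a UMI of Etv1 (297, 240, 230 and 231 in unsorted replicates 1 to 3 and the sorted library) were set against cells without one (82, 84, 82 and 74). Of the genes tested 7.56% were called, 422 higher and 461 lower in cells with Etv1. The 2 sides therefore differed in many other genes.

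In L5-S100b cells with Etv1, both near-projecting markers tested and 2 of 4 intratelencephalic markers were higher, with none of either list lower. Lypd1 stood at 53.1 ± 13.6 against 4.75 ± 1.90 CPM and Htr2c at 5.34 ± 0.712 against 1.08 ± 1.24 CPM (SD, n = 4). Deptor, an inhibitor of mTOR, was at 210 ± 57.2 against 69.5 ± 16.9 CPM and Slc30a3 at 146 ± 23.6 against 66.3 ± 7.47 CPM.

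The other lists were mixed. Of 5 layer 6 markers, Hs3st4 and Foxp2 were higher in cells with Etv1 and Sulf1 was lower. Of 14 immediate early genes 6 were higher, among them Npas4 at 129 ± 17.5 against 58.3 ± 16.3 CPM, and 2 were lower. Sulf1 was at 16.8 ± 4.35 CPM in cells without Etv1 against 2.19 ± 0.710 CPM in cells with it, and Calb1 at 22.4 ± 3.28 against 4.20 ± 0.651 CPM (SD, n = 4). Bcl11b, a factor of subcerebral projection neurons, was at 45.7 ± 9.70 against 25.8 ± 3.68 CPM, while Fezf2, its upstream partner, was lower in them, at 25.3 ± 1.93 against 68.2 ± 6.33 CPM. Spry4 and Ccnd1 were also higher in cells without Etv1, at 6.82 ± 1.99 against 2.04 ± 0.586 CPM and 47.2 ± 6.53 against 12.5 ± 2.19 CPM (SD, n = 4).

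For the other members in this split the log2 fold change was -2.27 ± 0.271 for Pou3f1 and -1.82 ± 0.225 for Bcl6 (edgeR, SE). These are the cells of the co-detection counts above and give no independent evidence. Barcode-high neurons were less frequent in the cells without Etv1, at 68.3%, 63.1%, 61.0% and 45.9%, than in those with it, at 70.0%, 78.8%, 81.7% and 74.5%. The cells without Etv1 were also shallower, with median depths of 22879 to 30042 against 24961 to 34275 UMIs.

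In L2/3-Rorb the same split called 2.33% of genes, 123 higher and 121 lower in cells with Etv1. Thinning left 68.8% of unsorted cells without an Etv1 UMI there, where 55.1% lacked one at full depth. Lypd1 was again higher, at 203 ± 53.0 against 82.8 ± 9.35 CPM, and S100b, the marker that names a layer 5 subtype, at 22.1 ± 15.9 against 4.18 ± 2.35 CPM (SD, n = 4), higher in 3 of 4 libraries. The upper layer genes Cux2 and Rorb were lower, at 116 ± 37.6 against 181 ± 41.2 CPM and 126 ± 13.7 against 216 ± 33.1 CPM. Ccnd1 and Spry4 were lower in cells with Etv1 as in L5-S100b, with log2 fold changes of -1.64 ± 0.358 and -1.70 ± 0.428 (edgeR, SE).

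In L5-Bcl6, cells with and without a UMI of Bcl6 after thinning to 10000 UMIs differed in few genes, 0.259% of those tested. Thinning left 56.8% of unsorted cells without a Bcl6 UMI, where 31.1% lacked one at full depth, so that many of the cells counted as without one hold one at full depth. Of 13 immediate early genes tested 6 were higher in cells with Bcl6, led by Npas4 at 77.5 ± 26.1 against 38.7 ± 10.9 CPM (SD, n = 4), but these are the cells of the activity contrast and give no independent evidence. Fam84b was higher by 0.72 ± 0.162 on the log2 scale, and Slc30a3 (-1.09 ± 0.172), Camk2d (-2.41 ± 0.372) and Col23a1 (-2.38 ± 0.332) were lower (edgeR, SE). This fit called 24 genes, DESeq2 called 5 and the fit without the library block 1. At most 1 of the calls named here therefore holds in every fit. Etv1 and Pou3f1 did not pass the test, with log2 fold changes of 0.08 ± 0.0730 (adjusted p = 0.921) and 0.20 ± 0.0694 (adjusted p = 0.437) by edgeR.

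The split of L5-Bcl6 by Pou3f1, in cells thinned to 10000 UMIs, called more genes. Thinning left 15.4% of unsorted cells without a Pou3f1 UMI, where 9.84% lacked one at full depth, so that some of the cells counted as without a UMI hold one at full depth. There were 23, 10, 14 and 15 such cells in the 4 libraries, against 98, 84, 70 and 51 with Pou3f1, and 4.79% of genes were called. Fezf2 was at 268 ± 27.2 CPM with and 116 ± 22.3 CPM without Pou3f1, and Etv5, a relative of Etv1, at 189 ± 19.8 and 72.6 ± 22.6 CPM (SD, n = 4). Slc30a3 was at 17.9 ± 5.11 CPM with and 132 ± 10.6 CPM without Pou3f1, Lpl at 0.551 ± 0.789 and 43.0 ± 14.9 CPM, and Col23a1 at 2.30 ± 1.53 and 80.7 ± 17.9 CPM. The cells without Pou3f1 therefore carried less of 3 of 6 extratelencephalic markers and more of Slc30a3 and Rorb, whereas Deptor was lower in them, and they were shallower, with medians of 19658 to 26979 against 23722 to 31195 UMIs.

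Neither of the other members passed the test in this split. Etv1 had a log2 fold change of 0.08 ± 0.0982 (adjusted p = 0.765) and Bcl6 of 0.55 ± 0.192 (adjusted p = 0.0832), both by edgeR. Excitatory neuron markers summed to 5335 to 6973 CPM in L5-Bcl6 cells with Pou3f1 and 3994 to 5089 CPM in those without. Of 5 such markers tested, 2 were called higher and 1 lower with Pou3f1. Mural cell markers summed to 18.4 to 26.6 CPM in L5-Bcl6 cells with Pou3f1 and 30.7 to 72.8 CPM in those without, and 1 mural marker was called lower with Pou3f1. Markers of oligodendrocyte precursors, in which Pou3f1 is highest, summed to 1.23 to 5.02 CPM in cells with Pou3f1 and 0 to 4.38 CPM in those without, near 0 on both sides.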

How the data were processed

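Droplet libraries (10x Genomics) of 3 unsorted samples and 1 sorted sample were analysed. The authors aligned reads and counted UMIs with Cell Ranger 3.0.2 against mm10 with the viral barcodes added, and the deposited matrices hold raw counts of UMIs per gene and cell, with no normalization. The authors' metadata give the subtype, total counts and percent of mitochondrial UMIs of 9368 excitatory neurons. The authors describe each viral barcode as a separate gene, but the deposited matrices hold 1 feature named barcode, which was left out of totals.

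Groups came from the sample titles. Counts were summed per library and group of cells. Tests used edgeR 4.0.16 in R 4.3.3 (TMM, filterByExpr, quasi-likelihood F test, Benjamini-Hochberg adjustment over all genes tested), with DESeq2 1.42.0 as an alternative. A call needed an adjusted p below 0.05 with a log2 fold change of 0.5 or more in either direction. The library entered as a block because both groups of cells came from the same library, and replicate numbers pair no samples across the unsorted and sorted groups. Levels are CPM of summed counts, with SD over libraries. For shares of cells, cells were thinned to 10000 UMIs and shallower cells were left out. Other classes came from cells with less than 20% mitochondrial UMIs, 1000 to 60000 UMIs and 500 to 8000 genes, clustered in scanpy 1.11.5 (2000 variable genes, 30 components, Leiden resolution 1), giving 39 clusters of which 28 were named by at least 3 markers and 11, with 1029 cells, were left unnamed. No doublet caller was run, since the authors used these limits to remove doublets. Scripts were tested on simulated data with known changes.

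The members, gene lists and tests were chosen with earlier results of these data known. The tests of differences between subtypes, the fits in barcode-high cells alone and all 4 splits by a UMI of a member were added after the data had been seen. Named genes are the members, the 5 genes nearest to each and, of each list, up to 6 called genes per contrast. S100b, Lpl, Camk2d and Col23a1 come from the 5 largest changes in each direction and were chosen after their values were seen. Counting error alone limits shares and sums of few UMIs, and cells of 1 library were never used as replicates. UMI counts near the 3′ end of transcripts do not allow levels to be compared between genes.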

Additional observations from a re-analysis of the deposited data

Results flagged for a closer look

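The log2 ratio of Etv1 between the upper and lower tertile of L5-S100b cells by immediate early gene content was 0.629 in unsorted replicate 3, far from the other libraries at 0.066, 0.106 and 0.080. It was the only such sample among 32 groups of 4 values examined, and chance alone marks about 1 group in 20.

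The effect of immediate early gene content on Bcl6 differed between L5-S100b and L5-Bcl6 by -2.12 on the log2 scale, and that on Etv1 between L6-Syt6 and L5-S100b by -0.564, both past the test of the difference in edgeR (adjusted p = 3.07e-06 and 5.85e-06). Leaving out 1 library at a time gave -2.42 to -1.79 for Bcl6 and -0.602 to -0.476 for Etv1, all past the test. Both comparisons were added after the opposite signs had been seen, so that their p-values are a description. They were not fitted with DESeq2, without the block or with a split at the median. The L5-S100b values of Bcl6 rest on few UMIs and lost the test in those fits.

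The log2 ratio of Etv1 between neurons with 5 or more and with 0 barcode UMIs was positive in every library in L2/3-Rorb (mean 0.958) and L5-S100b (0.480) and negative in every library in L6-Npy (-0.347) and L6-Syt6 (-0.567). For Bcl6 it was positive in every library compared in L5-Bcl6 (0.255), in L2/3-Calb1 (0.876) and in L2/3-Rorb (1.29), in the last 2 at few UMIs. It was negative in every library in L5-S100b (-0.935). These differences between subtypes were not tested.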

How the results depend on the processing

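Depth limited the shares of cells: after thinning to 10000 UMIs, Bcl6 was found in 43.2% and Pou3f1 in 84.6% of unsorted L5-Bcl6 cells, and the log2 ratio of Bcl6 by barcode in L5-Bcl6 was 0.588. The number of genes called by barcode in L2/3-Calb1, L2/3-Rorb, L5-Bcl6, L5-S100b, L6-Npy and L6-Syt6 was 15, 14, 6, 310, 83 and 218. DESeq2 called 2, 0, 0, 142 and 11 in the first 5, where 132 genes in L2/3-Rorb and 46 in L5-Bcl6 had an unadjusted p under 0.05 in DESeq2 and 681 and 579 in edgeR. With no filter on low counts 32, 28 and 22 were called in the first 3. Without the replicate block for the library, 0, 1, 56, 0 and 75 were called in L2/3-Rorb, L5-Bcl6, L5-S100b, L6-Npy and L6-Syt6, with 285 genes in L2/3-Rorb and 406 in L6-Npy at an unadjusted p under 0.05 in edgeR. With a limit of 10 barcode UMIs the counts were 42, 25, 20, 145 and 421 in L2/3-Calb1, L2/3-Rorb, L5-Bcl6, L6-Npy and L6-Syt6. Leaving out 1 library gave 12 to 26, 2 to 33, 4 to 31, 178 to 289, 45 to 75 and 28 to 309 calls in the 6 subtypes. The libraries that moved a count by more than 1.5 times were unsorted replicate 3 in L2/3-Calb1 (26), L5-Bcl6 (31), L6-Npy (45) and L6-Syt6 (77), replicate 2 in L2/3-Rorb (33), L5-S100b (178) and L6-Syt6 (28), and replicate 1 in L2/3-Rorb (2) and L6-Syt6 (78).

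By immediate early gene content the counts were 111, 301, 110, 666, 418 and 1189 in the same subtypes. DESeq2 called 54, 101, 49, 316 and 204 and the fit without the replicate block 53, 91, 52, 300 and 201 in the first 5. A split at the median in place of tertiles called 431 in L5-S100b and 727 in L6-Syt6, and barcode-high cells alone 383 and 665. For the splits by a UMI of Etv1 in L5-S100b, Etv1 in L2/3-Rorb, Bcl6 in L5-Bcl6 and Pou3f1 in L5-Bcl6, where 883, 244, 24 and 433 genes were called, DESeq2 called 580, 58, 5 and 225, and the fit without the block 25, 1 and 226 in the last 3. Without 1 library the split by Etv1 in L2/3-Rorb called 141 to 283 (141 without unsorted replicate 2) and that by Bcl6 in L5-Bcl6 6 to 35 (6 and 14 without unsorted replicates 1 and 3).

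Of the members by immediate early gene content, Bcl6 in L5-Bcl6 stayed past the test in all alternatives (log2 fold change 0.61 to 1.11). The values that lost the test were Etv1 in L5-S100b with DESeq2 (0.26), without the block (0.24) and in barcode-high cells (0.15), with 0.12 to 0.30 when 1 library was left out (0.12 without unsorted replicate 3), Bcl6 in L5-S100b with DESeq2 (-1.18), without the block (-1.11) and with a split at the median (-0.62), and Etv1 in L6-Syt6 in barcode-high cells (-0.31). Signs reversed for values not past the test: Pou3f1 in L2/3-Calb1 with a split at the median (-0.034), Etv1 in L2/3-Calb1 with that split (0.029) and, between -0.69 and 0.14 when 1 library was left out, without the sorted library (0.14), and Pou3f1 in L5-Bcl6 in barcode-high cells (-0.0046). Etv1 in L2/3-Rorb ranged from -0.41 without the sorted library to 0.39 without unsorted replicate 2, both past the test, so that 1 library decided its sign. At 5000 UMIs the log2 odds ratios were 0.50 for Etv1 with Bcl6, 0.22 for Etv1 with Pou3f1 and 0.58 for Bcl6 with Pou3f1 in L5-Bcl6, -2.35 for Etv1 with Bcl6 in L5-S100b, and 0.70 in L6-Npy and 1.28 in L6-Syt6 for Etv1 with Pou3f1. By rank correlation 3, 0 and 1 of the 5 nearest genes of Etv1, Bcl6 and Pou3f1 stayed, and with a mean of at least 20 CPM 2 of those of Pou3f1, while Bcl6 itself fell below that limit. Etv1 in oligodendrocyte-like cells was 509 CPM at a Leiden resolution of 0.5. The cause of these changes was not tested. Unsorted replicates 1 to 3 and the sorted library share only number 1, and fits with and without the library as a block are given above.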
